A study of Homo sapiens with 16 samples.

Results

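The PAX family comprises 9 genes, PAX1 to PAX9, and was taken here whole, by gene name, from the 19974 protein-coding genes of chromosomes 1 to 22 and X in the RefSeq annotation of GRCh38. Peaks were collected within 2 kb of both annotated ends of each gene ("gene-end" peaks) and over the gene body plus those flanks (the "locus"), separately in every library. The data are chromatin immunoprecipitation followed by sequencing (ChIP-seq), in which DNA bound by a protein or carrying a histone mark is pulled down with an antibody (IP) and compared with chromatin taken before the pull-down (input). The cells were HepG2, a line from a liver carcinoma, and THLE-2, an immortalised line of normal liver epithelium. The labels name no drug treatment and no genetic change for either line. JARID2 was mapped in both lines, and EZH2 and H3K27me3 in THLE-2. Each of these 4 groups had 2 biological replicates, and each of the 8 IP libraries had its own input library, so the series holds 16 samples. EZH2 and H3K27me3 of HepG2 were not analysed here, so the lines can be compared for JARID2 alone. The lists hold binding positions and no expression values, so the identity of the lines and the expression of the PAX genes in them were not tested.

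PAX proteins are transcription factors that bind DNA through a paired domain and set the identity of organ primordia in the embryo. They fall into 4 subgroups by domain structure: PAX1 and PAX9, which lack a homeodomain, PAX2, PAX5 and PAX8, which keep part of one, and PAX3 and PAX7 as well as PAX4 and PAX6, which have a complete one. They are known for roles outside the liver, in the skeleton, teeth, kidney, thyroid, eye, pancreas, muscle and B cells. EZH2 is the catalytic subunit of Polycomb repressive complex 2, H3K27me3 is the trimethylation of lysine 27 of histone H3 that it deposits, and JARID2 is an accessory subunit that helps bring the complex to DNA. Genes of developmental transcription factors with starts rich in CG dinucleotides are classical targets of the complex.

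The libraries differed in ways that bear on every PAX locus. Filtered IP tags (reads that the peak caller MACS kept, at most 1 per position) ranged from 7.95 to 39 M, and deposited peaks from 2112 to 90524 per library. HepG2 JARID2 replicate 2 stood apart from its partner: 4090 peaks against 15738, and a gene-end peak at 0.716% of coding genes against 22.5%. H3K27me3 replicate 2 had 90524 peaks against 46198 in replicate 1. The authors' false discovery rate per peak was at most 5% for all 15738 peaks of HepG2 JARID2 replicate 1 and for 0 to 11 peaks in each other list. Results are therefore given for each replicate beside those found in both.

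Gene-end EZH2 peaks were found at 5 of the 9 PAX genes in both THLE-2 replicates, namely PAX1, PAX2, PAX5, PAX7 and PAX9. The same was seen at 4.88% of all coding genes. Replicate 1 alone had these 5 (background 5.92%), and replicate 2 had PAX6 in addition, which makes 6 (background 6.54%). Over the whole locus the counts were the same: 5 in replicate 1 (background 7.29%), 6 in replicate 2 (background 9.74%) and 5 in both (background 5.84%). PAX3, PAX4 and PAX8 had no EZH2 peak anywhere over the locus in either replicate. No test was made over the 9 genes, and a gene without a peak is one where MACS called none.

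Promoter sequences of 6 members are shown because they cover the range of CG content and of EZH2 peaks in the family. Each is the 250 bases before the outermost annotated start, read 5′ to 3′ on the gene's strand from the RefSeq promoter table of GRCh38.p14, with every CG dinucleotide in capitals. PAX7, PAX5, PAX9 and PAX2 lay under an EZH2 peak in both replicates, and PAX3 and PAX4 in neither.
PAX7, chr1:18630596-18630845, plus strand: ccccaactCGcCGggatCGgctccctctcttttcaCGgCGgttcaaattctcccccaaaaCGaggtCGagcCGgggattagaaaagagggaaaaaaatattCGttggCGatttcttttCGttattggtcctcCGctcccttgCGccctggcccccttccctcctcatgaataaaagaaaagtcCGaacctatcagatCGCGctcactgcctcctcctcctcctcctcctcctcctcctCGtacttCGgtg
PAX5, chr9:37034269-37034518, minus strand: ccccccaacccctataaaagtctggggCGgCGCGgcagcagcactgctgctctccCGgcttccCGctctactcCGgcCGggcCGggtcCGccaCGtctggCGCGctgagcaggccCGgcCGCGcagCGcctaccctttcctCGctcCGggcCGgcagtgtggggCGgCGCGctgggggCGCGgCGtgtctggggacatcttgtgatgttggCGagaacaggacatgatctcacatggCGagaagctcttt
PAX9, chr14:36657318-36657567, plus strand: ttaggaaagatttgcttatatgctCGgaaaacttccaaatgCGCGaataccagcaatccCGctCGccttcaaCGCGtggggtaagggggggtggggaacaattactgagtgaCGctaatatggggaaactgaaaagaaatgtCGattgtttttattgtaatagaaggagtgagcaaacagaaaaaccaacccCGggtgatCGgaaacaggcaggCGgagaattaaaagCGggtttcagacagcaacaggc
PAX2, chr10:100735146-100735395, plus strand: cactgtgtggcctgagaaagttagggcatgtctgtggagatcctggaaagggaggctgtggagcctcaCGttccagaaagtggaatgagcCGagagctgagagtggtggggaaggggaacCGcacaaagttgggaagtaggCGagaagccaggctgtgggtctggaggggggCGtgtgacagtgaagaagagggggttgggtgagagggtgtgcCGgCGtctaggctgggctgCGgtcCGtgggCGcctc
PAX3, chr2:222298999-222299248, minus strand: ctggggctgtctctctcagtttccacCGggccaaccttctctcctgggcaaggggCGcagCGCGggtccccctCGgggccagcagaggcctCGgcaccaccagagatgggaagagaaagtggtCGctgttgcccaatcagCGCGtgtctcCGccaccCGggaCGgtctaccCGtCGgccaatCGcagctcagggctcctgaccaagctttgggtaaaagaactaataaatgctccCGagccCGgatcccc
PAX4, chr7:127618143-127618392, minus strand: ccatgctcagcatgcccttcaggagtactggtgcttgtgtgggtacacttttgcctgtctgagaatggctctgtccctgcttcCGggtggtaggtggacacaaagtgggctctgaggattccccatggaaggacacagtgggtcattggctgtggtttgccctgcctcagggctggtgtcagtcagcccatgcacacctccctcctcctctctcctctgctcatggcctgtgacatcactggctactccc
The PAX5 sequence holds 27 CG dinucleotides, PAX7 18, PAX9 13 and PAX2 10. PAX3, without an EZH2 peak, holds 17, and PAX4 holds 1. CG number thus did not separate the 2 sets: PAX3 had more than PAX2 and PAX9.

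**Figure D1:**
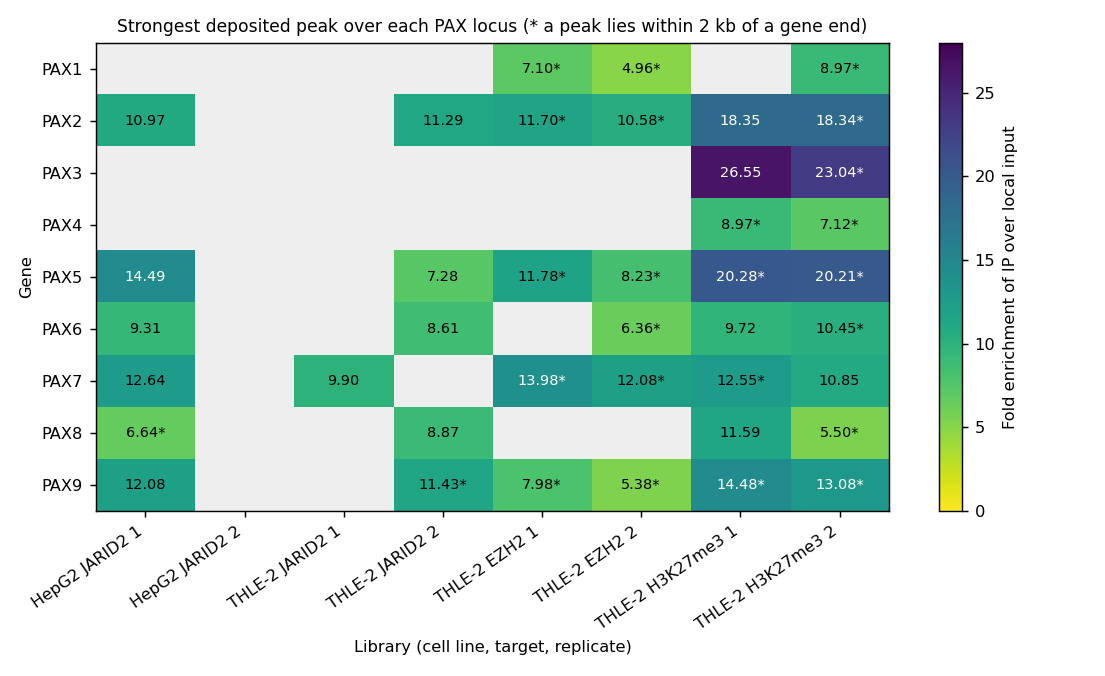
Strongest deposited peak over each PAX locus (rows) in each of the 8 IP libraries (columns), coloured and labelled by the authors' fold enrichment over local input, with grey for no peak and an asterisk where any peak lies within 2 kb of a gene end. EZH2 is present in both replicates at 5 genes, H3K27me3 at 8, and HepG2 JARID2 replicate 2 is empty throughout.

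PAX1 and PAX9 act in the sclerotome, which forms the vertebrae, and in the pharyngeal pouches, and PAX9 is needed for teeth. PAX1 (chromosome 20, 21705664 to 21718481) had an EZH2 peak across its lower-coordinate end in both replicates, with fold enrichments of 7.1 and 4.68 for replicates 1 and 2. Fold enrichment is the authors' ratio of IP over local input at a peak and is used here to describe peaks within their own list. These peaks were 9.02 and 9.23 kb wide, and in replicate 2 a further peak of 3.66 kb lay over the gene body. EZH2 peaks covered 37.6% of the PAX1 locus in replicate 1 and 60% in replicate 2. H3K27me3 covered none of it in replicate 1 and 75.6% in replicate 2, the only PAX locus without any H3K27me3 peak in a replicate. None of the 4 JARID2 peak lists had a peak at PAX1.

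PAX9 (chromosome 14, 36657568 to 36679362, plus strand) had nearly the same EZH2 stretch in both replicates. The peaks at its start spanned 36653764 to 36664816 and 36654045 to 36664867, widths of 11.1 and 10.8 kb, with folds of 7.98 and 5.38. They covered 35.9% and 36.1% of the locus. H3K27me3 differed between replicates: replicate 1 had a single peak of 4.11 kb near the far end (fold 14.48), while replicate 2 had a peak of 11.2 kb over the start (fold 7.51) and 3 more downstream. Coverage by the mark was 15.9% and 52.1%. PAX9 was also the only member with a JARID2 peak at its start in THLE-2, in replicate 2 (36657527 to 36658386, fold 11.43, rank 162 of 5532 by fold). The authors gave that peak a false discovery rate of 43.23%, and replicate 1 had no peak there.

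PAX2, PAX5 and PAX8 share a partial homeodomain and act in the kidney, in B cells and in the thyroid, in that order. PAX2 (chromosome 10, 100735396 to 100829944, plus strand) carried EZH2 at both ends in both replicates. The peaks across the start were 17.9 and 19.4 kb wide, with folds of 11.7 and 10.58, and ranked 11 of 2081 and 7 of 3637 by width on chromosomes 1 to 22 and X. Their summits lay inside the gene, 13.38 and 13.14 kb from the outermost start, and the window of 300 bases at an internal annotated start at 100745332 to 100745631 lay under the same peaks. The far-end peaks were 6.57 and 7.25 kb wide, with folds of 6.45 and 6.67. Replicate 2 had a further EZH2 peak of 5.2 kb (fold 5.75) that ended 1.54 kb before the start. H3K27me3 covered 21.4% and 35.5% of the PAX2 locus, with strongest folds of 18.35 and 18.34, both within the gene body.

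PAX5 (chromosome 9, 36833269 to 37034268, minus strand), the factor that commits lymphoid progenitors to B cells, is the longest member at 201 kb. An EZH2 peak of 15.3 kb crossed its start in replicate 1, with a fold of 11.78. In replicate 2 the same stretch was called as a peak of 6.21 kb across the start (fold 8.23) and a peak of 8.48 kb just inside the gene (fold 6.13). A separate body peak was called in both replicates: 36984553 to 36988455 (fold 7.14) in replicate 1, and 36984480 to 36988122 (fold 6.47) in replicate 2. EZH2 covered 7.67% and 7.19% of this long locus. H3K27me3 covered 17.3% in 8 peaks in replicate 1 and 60.9% in 24 peaks in replicate 2, with strongest folds of 20.28 and 20.21.

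PAX8 (chromosome 2, 113215997 to 113278921, minus strand), a factor of thyroid and kidney development, differed from PAX2 and PAX5 in having no EZH2 peak. H3K27me3 covered 7.9% and 14.1% of it, the lowest share of any member in replicate 2. The mark lay over the PAX8 start in replicate 2 only, in a peak of 4.01 kb with a fold of 4.61. PAX8 was the only member with a gene-end JARID2 peak in HepG2, in replicate 1, at 113276978 to 113278198 inside the start (fold 6.64, rank 14314 of 15738 by fold). By MACS score that peak ranked 2885 of 15738, and its false discovery rate was 0.55%.

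PAX3 and PAX7 mark muscle precursors, PAX3 also neural crest and PAX7 the satellite cells that renew adult muscle. Their EZH2 peaks differed, with PAX7 carrying them and PAX3 not. PAX7 (chromosome 1, 18630846 to 18748866, plus strand) had the strongest gene-end EZH2 of the family, with folds of 13.98 and 12.08 (rank 89 of 2112 and 44 of 3690). Its start peaks were 19 and 13.9 kb wide, ranks 8 of 2081 and 31 of 3637, and their summits lay 0.93 and 0.89 kb inside the start. PAX3 (chromosome 2, 222199887 to 222298998, minus strand) had none, although H3K27me3 covered 35.9% of its locus in 17 peaks in replicate 1 and 23.5% in 19 peaks in replicate 2. The strongest of these PAX3 peaks had folds of 26.55 and 23.04, the highest at any PAX gene, at rank 13 of 46198 and rank 68 of 90524. They overlapped, at 222237740 to 222242968 and 222239722 to 222240827, in the middle of the gene. Of the base pairs marked at PAX3 in replicate 1, 43.8% were also marked in replicate 2. Within the PAX7 locus H3K27me3 covered 21% and 40.6% and lay downstream of the EZH2 start peaks in both replicates. Beyond the flank, an H3K27me3 replicate 1 peak lay upstream, 2.67 and 1.73 kb from the EZH2 start peaks of replicates 1 and 2. A further EZH2 peak of 3.6 kb, with a fold of 10.58, was called deep in the PAX7 body in replicate 1.

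PAX4 and PAX6 act in the endocrine pancreas, PAX4 towards beta cells, and PAX6 is the main regulator of eye development. PAX4 (chromosome 7, 127610292 to 127618142, minus strand) is the shortest member at 7.85 kb. It had no EZH2 or JARID2 peak, but H3K27me3 crossed its start in both replicates, in peaks of 9.95 and 8.69 kb with folds of 8.97 and 7.12. The mark covered 61.8% and 78.5% of the PAX4 locus, and of the 8 members with an annotated promoter window it was the only one under H3K27me3 in both replicates. PAX6 (chromosome 11, 31789026 to 31817961, minus strand) was the only member with EZH2 in a single replicate. Replicate 1 had no peak there, while replicate 2 had a start peak of 19.4 kb (fold 6.36, rank 8 of 3637 by width) and a body peak of 6.45 kb, together covering 73.9% of the locus. H3K27me3 at PAX6 followed the same split, with 3.58% covered in replicate 1 and 79.1% in replicate 2.

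**Figure D2:**
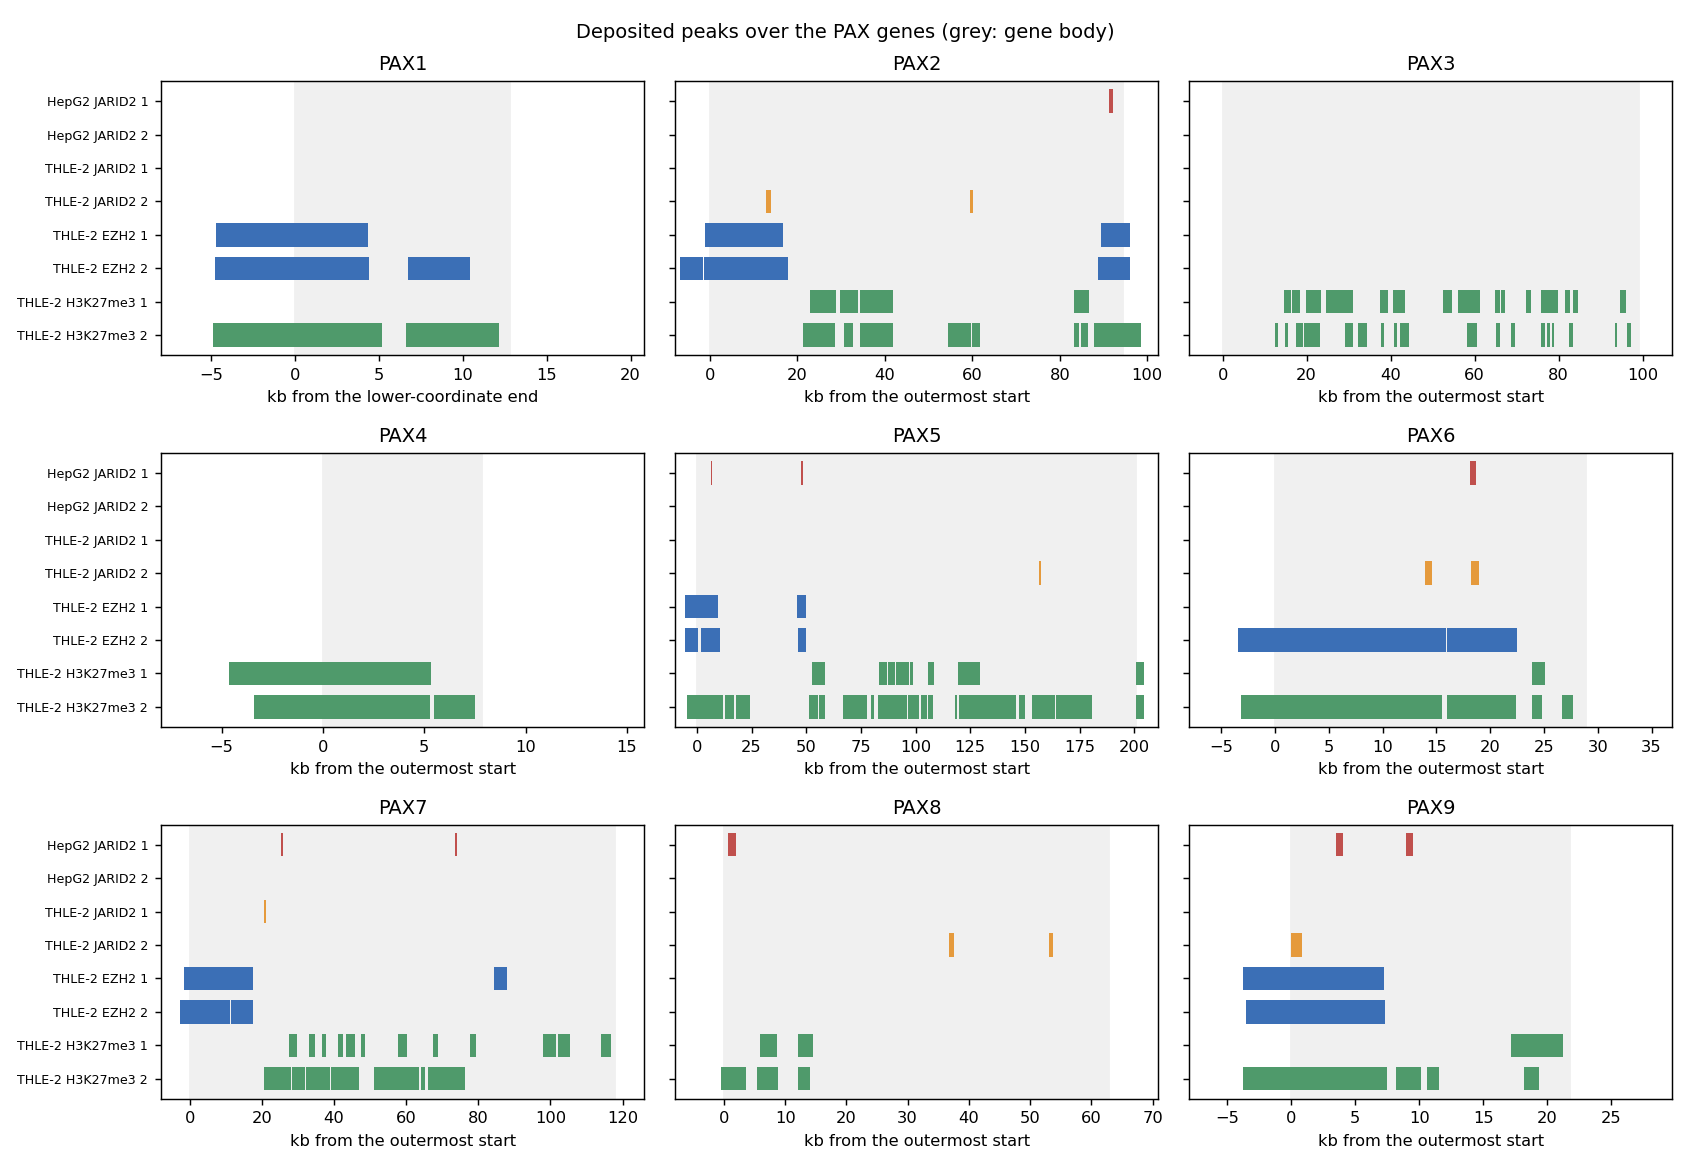
Extent of every deposited peak (bars, coloured by group) along each PAX gene in the 8 IP libraries, in kb from the outermost start (for PAX1 from its lower-coordinate end), with the gene body in grey. The shortest bars of the longest genes are drawn at a minimum width. EZH2 bars cross the starts of PAX2, PAX5, PAX7 and PAX9 in both replicates, and that of PAX6 in replicate 2. Only peaks touching a locus are drawn, and among these the H3K27me3 bars of PAX2 and PAX7 begin downstream of the EZH2 start bars.

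EZH2 peaks at the PAX genes were wider at the median than all EZH2 peaks of the lists. Over all peaks of the lists the median width was 3.01 and 1.03 kb in replicates 1 and 2, and over the 8 and 13 EZH2 peaks at PAX loci it was 10 and 7.25 kb. The list medians were not limited to peaks that touch a gene, and a wide peak touches a locus more readily. The part of this in the difference was not tested. Median folds were closer, 9.28 at PAX loci against 8.12 over the list in replicate 1 and 6.36 against 6.63 in replicate 2. By strongest gene-end fold the order in replicate 1 was PAX7, PAX5, PAX2, PAX9 and PAX1. In replicate 2 it was PAX7, PAX2, PAX5, PAX6, PAX9 and PAX1. PAX2 and PAX5 changed places, so their order is within the spread between replicates. The authors' false discovery rate was 100% for all EZH2 peaks at PAX loci in both replicates except the start peak of PAX5 (90.57%) and a body peak of PAX7 (33.33%) in replicate 2.

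**Figure D3:**
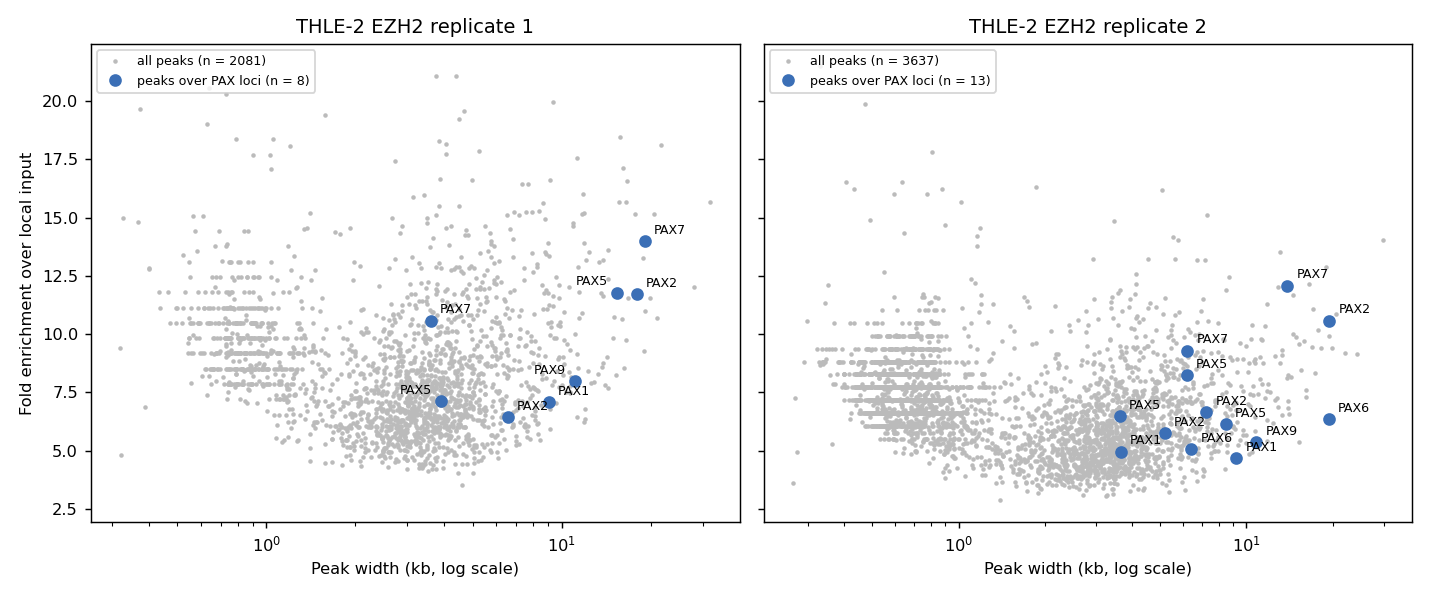
Width (kb, log scale) and fold enrichment over local input of every EZH2 peak in THLE-2 replicates 1 and 2 (grey), with peaks over PAX loci in blue and named. The peaks across the starts of PAX7 and PAX2 lie at 13.9 to 19.4 kb with folds of 10.58 to 13.98, and that of PAX6 in replicate 2 at 19.4 kb with a fold of 6.36.

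H3K27me3 was found over 8 of the 9 PAX loci in both replicates, all except PAX1, against 14.4% of coding genes. Replicate 1 had these 8 (background 15.2%) and replicate 2 all 9 (background 24.9%). At gene ends the count in both replicates was 3, PAX4, PAX5 and PAX9 (background 6.75%). Replicate 1 had 4, PAX4, PAX5, PAX7 and PAX9 (background 7.7%), and replicate 2 had 8, all but PAX7 (background 19.1%). The gene-end count thus depended on the replicate, and at PAX5, PAX7 and PAX9 the replicate 1 peak lay at the far end of the gene and not at its start. Locus counts grow with gene length, and PAX5, PAX7, PAX3 and PAX2 are longer than 82.3% of coding genes or more. The median share of a PAX locus covered by H3K27me3 was 17.3% and 52.1% in replicates 1 and 2, against a mean of 2.48% and 6.21% over coding loci.

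The base pairs under EZH2 and H3K27me3 at the PAX genes were then compared directly. None of the 78.5 and 105 kb under EZH2 peaks at PAX loci lay under a peak of H3K27me3 replicate 1, where the share over the genome was 4.96% and 6.1%. With H3K27me3 replicate 2 the overlap was 43.1% and 58.7% of EZH2 base pairs at PAX loci, and 69.6% and 64.7% over the genome. Of the 5 genes with gene-end EZH2 in both replicates, 3 also had a gene-end peak of H3K27me3 replicate 1 (16.7% of such coding genes) and 4 of replicate 2 (82.2%). At those 3, PAX5, PAX7 and PAX9, the H3K27me3 replicate 1 peak was at the far end and the gene-end EZH2 peak at the start. The PAX genes divided by their overlap with H3K27me3 replicate 2. At PAX1 and PAX9 this library covered 100% of the EZH2 base pairs of both EZH2 replicates, at PAX6 98.3%, and at PAX5 74.4% and 75.2%. At PAX2 it covered 26.8% of the EZH2 base pairs of each replicate, which was the far-end peak in full and the start peak not at all. At PAX7 it covered 0%.

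The PAX2 and PAX7 starts were therefore sites where EZH2 was called in both replicates with no H3K27me3 peak over it in either. From the PAX2 start peak the nearest peak of H3K27me3 replicate 2 was 4.47 and 3.27 kb away for EZH2 replicates 1 and 2. At PAX7 the EZH2 stretch ended 3.22 and 3.08 kb before the nearest such peak. The PAX5 body peak also had no H3K27me3 peak called over it, with gaps of 1.34 and 1.26 kb to the nearest peak of H3K27me3 replicate 2. Of all EZH2 peaks, 66.4% in replicate 1 and 49.4% in replicate 2 overlapped H3K27me3 replicate 2, and 9.95% and 12.4% overlapped H3K27me3 replicate 1. Whether the difference between the H3K27me3 libraries has a part in these overlaps was not tested.

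**Figure D4:**
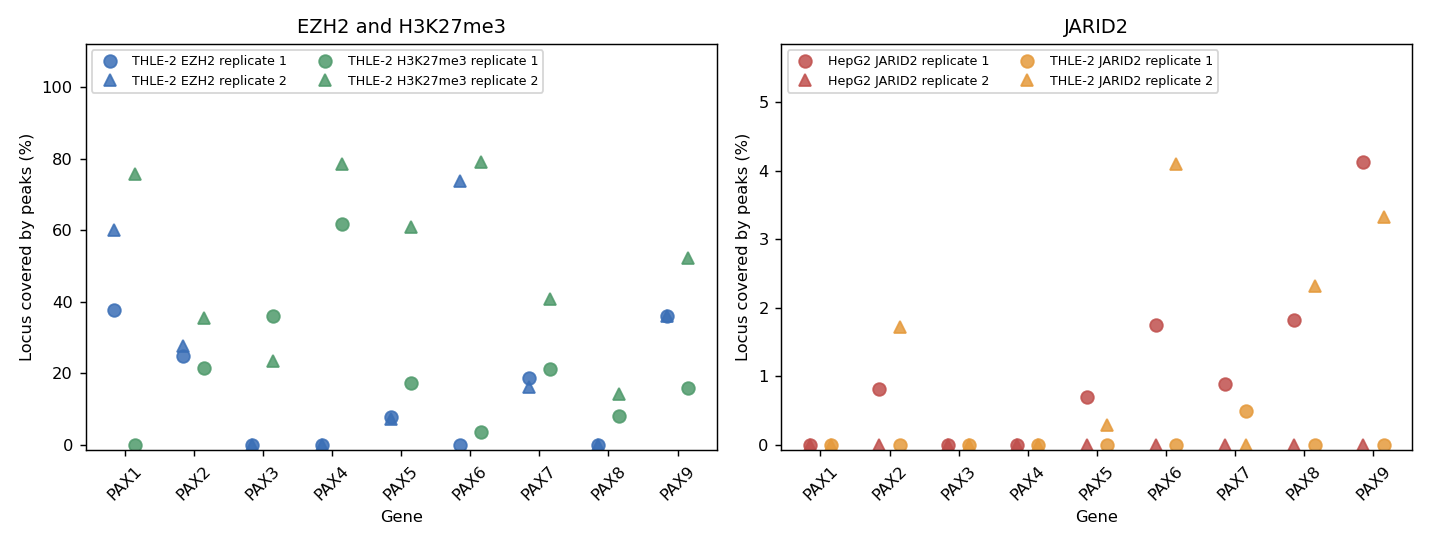
Share of each PAX locus (gene body and 2-kb flanks, in percent) covered by EZH2 and H3K27me3 peaks in THLE-2 (left) and by JARID2 peaks in HepG2 and THLE-2 (right), with circles for replicate 1 and triangles for replicate 2. H3K27me3 replicate 2 lies above replicate 1 at 8 genes, all but PAX3, and JARID2 shares stay at or below 4.13%.

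JARID2 peaks at PAX genes did not recur between replicates of a line. Recurrence was also rare over all coding loci, so 0 of 9 lies near the background in both lines. In HepG2, replicate 1 had 9 peaks over 6 loci, PAX2, PAX5, PAX6, PAX7, PAX8 and PAX9 (background 37.5%), and replicate 2 had none (background 6.92%). In THLE-2, replicate 1 had a single peak, in PAX7 (background 13.9%), and replicate 2 had 8 peaks over 5 loci, PAX2, PAX5, PAX6, PAX8 and PAX9 (background 13.6%). These locus backgrounds were not matched for gene length. PAX5, PAX7, PAX2 and PAX8 are longer than 93.1%, 86.2%, 82.3% and 74.1% of coding genes. PAX6 and PAX9 are longer than 54.7% and 47.1%. The part of length in these counts was not tested. Found in both replicates were 0 loci in HepG2 (background 4.13%) and 0 in THLE-2 (background 4.02%). At gene ends HepG2 had 1 gene in replicate 1 (PAX8, background 22.5%), 0 in replicate 2 (background 0.716%) and 0 in both (background 0.165%). THLE-2 had 0 in replicate 1 (background 4.21%), 1 in replicate 2 (PAX9, background 4.38%) and 0 in both (background 0.355%).

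The share of each locus covered by JARID2 was compared between lines over the 4 libraries. At PAX9 the HepG2 replicates 1 and 2 had 4.13% and 0%, while those of THLE-2 had 0% and 3.33%. At PAX6 the HepG2 replicates had 1.74% and 0%, while those of THLE-2 had 0% and 4.1%. In both genes a replicate of each line was at 0, and the groups overlapped. The difference in means, HepG2 minus THLE-2, ranged from -1.18 percentage points at PAX6 to 0.399 at PAX9 among the 6 genes with any JARID2 peak. In a two-sided exact permutation test p was 1 for each of the 6 genes and 1 after Benjamini-Hochberg adjustment, in a design whose smallest possible p is 0.3333. The PAX9 difference was 2.47 without HepG2 replicate 2 and 2.07 without THLE-2 replicate 2, but -1.67 without HepG2 replicate 1 and -1.27 without THLE-2 replicate 1. Its direction thus depended on which library was left out.

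The single JARID2 peaks often lay inside stretches that carried EZH2 in THLE-2. Of the 9 HepG2 replicate 1 peaks at PAX loci, 5 overlapped an EZH2 peak of either THLE-2 replicate (background over peaks at coding loci 7.12%) and 8 an H3K27me3 peak (background 11.2%). Of the 8 THLE-2 replicate 2 peaks, 4 overlapped EZH2 (background 2.88%) and 5 overlapped H3K27me3 (background 8.38%). The single THLE-2 replicate 1 peak, in PAX7, overlapped H3K27me3 (background 10.1%) and no EZH2 (background 2.33%). EZH2 peaks covered a median of 7.67% and 16% of the PAX loci, against a mean of 1.43% and 1.48% over coding loci, and the part of this in the overlaps was not tested. In every such case the H3K27me3 peak was one of H3K27me3 replicate 2.

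At PAX2, the THLE-2 replicate 2 JARID2 peak at 100748187 to 100749254 lay 12.79 to 13.86 kb inside the gene. Its fold was 11.29 and its score 149.95, rank 8 of 5532, and it was 1 of the 11 peaks of that list with a false discovery rate of at most 5%. Its summit, 13.2 kb from the start, lay within the EZH2 start peaks of both replicates, whose summits were at 13.38 and 13.14 kb. At PAX6, HepG2 replicate 1 (31799259 to 31799831, fold 9.31) and THLE-2 replicate 2 (31799049 to 31799739, fold 7.82) had peaks that overlapped, the only site of the family shared by 2 JARID2 libraries. That site lay 18.25 and 18.45 kb inside the gene, under EZH2 and H3K27me3 of replicate 2. At PAX5, a HepG2 replicate 1 peak (36985727 to 36986621, fold 14.49) lay on the EZH2 body peak over which no H3K27me3 peak was called.

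The promoter table held 19 windows of 300 bases for 8 of the members. Of these, 9 belong to PAX6, so counts of windows are weighted towards that gene. EZH2 overlapped 6 windows, those of PAX2, PAX5, PAX7 and PAX9, in both replicates (3.9% of 22132 promoters of coding genes). In replicate 2 it overlapped 15 (background 5.05%), with all 9 windows of PAX6 added to the 6 of replicate 1 (background 4.73%). H3K27me3 overlapped the 2 windows of PAX4 in both replicates (background 2.02%), 2 in replicate 1 (background 2.54%) and 15 in replicate 2 (background 11.2%). Those 15 windows belong to 5 genes. THLE-2 JARID2 replicate 2 overlapped 2 windows, of PAX6 and PAX9 (background 2.1%), and replicate 1 overlapped 0 (background 1.66%), which leaves 0 in both (background 0.113%). HepG2 JARID2 overlapped 0 windows in replicate 1 (background 13.6%), 0 in replicate 2 (background 0.0813%) and 0 in both (background 0.0407%).

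CpG observed over expected, the number of CG dinucleotides relative to that from the C and G content, had a median of 0.738 over all promoters. It was 0.812 over the 864 promoters with EZH2 in both replicates and 0.731 over the 20832 with EZH2 in neither. At the outermost start it was 1.07 for PAX7, higher than 95.2% of promoters, 0.993 for PAX9 and 0.949 for PAX5. PAX2, also with EZH2 in both replicates, had 0.561, with 35.7% of promoters lower. PAX6 had 0.77, PAX3 0.673, PAX8 0.483 and PAX4 0.0787. The members without EZH2 lay below PAX5, PAX6, PAX7 and PAX9, and 1 of them, PAX3, lay above PAX2. The letters CGCG were present in 11 of the 19 windows (62.3% of all promoters) and GAGAG, searched on both strands, in 16 of 19 (62.6% of all promoters). PAX6 alone holds 9 of these 19 windows. Such matches describe the sequence and are not binding sites.

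**Figure D5:**
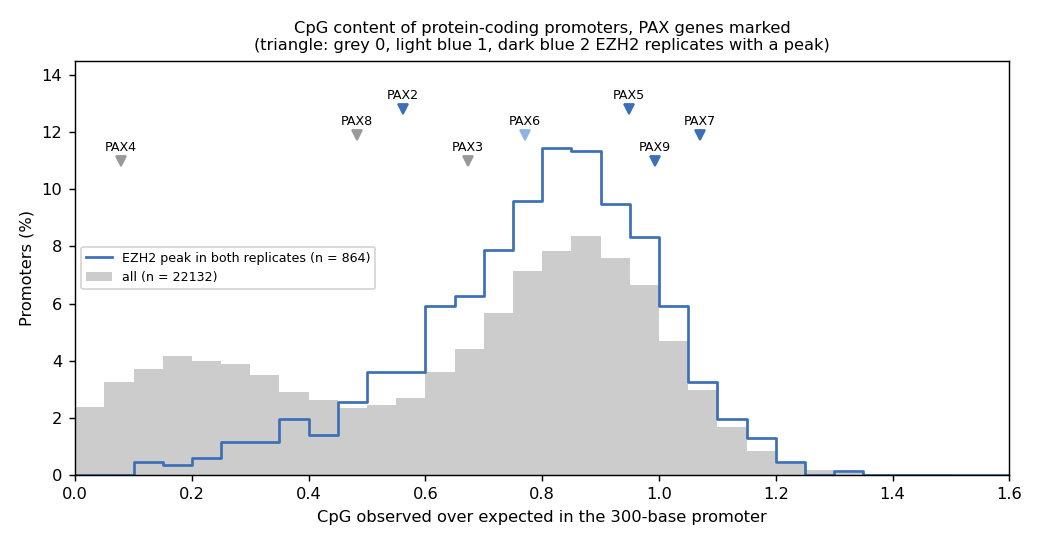
Distribution of CpG observed over expected in promoters of 300 bases, as the percent of promoters per bin, for all coding promoters (grey) and for the 864 with an EZH2 peak in both replicates (blue line), with the outermost promoters of 8 PAX genes as triangles coloured by the number of EZH2 replicates. PAX5, PAX7 and PAX9 lie at 0.949 to 1.07 and PAX4 at 0.0787; 2 promoters above 1.6 are outside the axis.

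Neighbouring genes shared some of these peaks. The lower-end peaks of PAX1 also reached LINC01726, and those at the PAX9 start reached LOC105370455, both long non-coding RNA genes. At PAX6 the start peaks of replicate 2 reached PAX6-AS1, which runs antisense to the gene, and the H3K27me3 peak at its far end reached ELP4. At PAX5 the peaks reached LOC105376030 and LOC105376031, and at PAX9 the far-end H3K27me3 peak of replicate 1 lay over SLC25A21, a mitochondrial carrier gene. A gene-end peak cannot be assigned to a single gene at these sites.

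For members with gene-end peaks in at least 3 libraries, other coding genes were ranked by the distance of log2(1 + strongest gene-end fold) over the 8 libraries. Nearest to PAX2 was CLEC2L, a lectin gene, at a distance of 0.08, with EZH2 folds of 11.26 and 10.09 and an H3K27me3 replicate 2 fold of 6.53. Nearest to PAX1 was LOC124900646 (0.09), to PAX5 C2orf72 (0.38) and to PAX9 LONRF2 (0.65), which also had a JARID2 peak in THLE-2 replicate 2.

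Genes that work with PAX factors or beside them in the same organs were counted in the same way, as genes with a gene-end peak in both replicates, without a test. Of 28 other paired-class homeobox genes, which share the homeodomain type of PAX3, PAX4, PAX6 and PAX7, 18 had EZH2 (4.88% of coding genes) and 5 had H3K27me3 (6.75%). OTP, a hypothalamic factor, had EZH2 folds of 10.9 and 9.76. Of a list of 12 partners of PAX factors in the eye, ear and kidney, 5 had EZH2 and 1 had H3K27me3, and among them EYA2 had EZH2 folds of 14.78 and 5.41. H3K27me3 differed between replicates here too. Replicate 1 had it at 5 of the 28 and 1 of the 12 genes (background 7.7%). In replicate 2 it was at 19 and 6 (background 19.1%).

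The lists by organ were counted likewise, against the same 4.88% of coding genes for EZH2 and 6.75% for H3K27me3. EZH2 was at 8 of 13 islet genes (MAFA, a beta cell factor, with folds of 13.09 and 10.56), at 7 of 16 kidney and thyroid genes (FOXE1, a thyroid factor, with 10.86 and 9.07), at 5 of 13 muscle and neural crest genes (FOXD3 with 18.47 and 12.43) and at 3 of 12 sclerotome, tooth and thymus genes (NKX3-2 with 10.63 and 9.48). At B cell genes the counts were 1 of 13 for EZH2 (IKZF1, 7.94 and 6) and 6 of 13 for H3K27me3, among them EBF1, a partner of PAX5 in B cell commitment, with folds of 13.56 and 8.94. H3K27me3 was at 4 of 16 kidney and thyroid genes, where TG, the thyroglobulin gene, had 28 and 15.93. In both replicates H3K27me3 was at 1 of 13 islet and 1 of 13 muscle and neural crest genes, each 7.69% and so near that background. It was at 2 of 12 sclerotome genes. The H3K27me3 replicates differed at these lists. Replicate 1 had 1 islet, 1 muscle and neural crest, 3 sclerotome, 4 kidney and thyroid and 6 B cell genes (background 7.7%). Replicate 2 had 10, 6, 7, 10 and 7, in the same order (background 19.1%). JARID2 in THLE-2 was at 1 of the 12 partner genes (SIX4) and 1 of the 28 genes of the paired class (GSC2), against 0.355% of coding genes, and in HepG2 at 0 of the genes of the 7 lists in both replicates (0.165% of coding genes).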

How the data were processed

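ChIP-seq peak lists of 8 IP libraries from HepG2 and THLE-2 cells were used. Per the submitters' processing notes, the authors used cutadapt, Bowtie2 and MACS 1.4.2 on GRCh38. Per the file headers, each IP library was set against its matched input with a p cutoff of 1e-05, keeping 1 tag per position and scaling the larger library down, and replicates were not pooled. The authors deposited, for each peak, its position, tag count, score (which rises with minus log10 of the MACS p), fold enrichment (a ratio over local input) and false discovery rate in percent. Tag totals are counts from the file headers.

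From these lists, overlaps of at least 1 bp with windows of 2 kb around gene ends, with loci and with promoters of 300 bases were computed in Python 3.11.15 (pandas 2.3.3, numpy 2.4.6). The overlap code was tested on simulated peaks. Peaks off chromosomes 1 to 22 and X were left out. JARID2 coverage was compared by exact permutation of 4 libraries. Members and gene lists were chosen with earlier results of these data known. Other genes were named where they share a gene-end peak of a member, are among the 3 nearest in peak pattern, or are among up to 4 best-ranked members of a list. Some of these are not reported here. Strand came from the promoter table. Alternatives were other windows, overlaps, score limits, list lengths and left-out replicates.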

Additional observations from a re-analysis of the deposited data

How the results depend on the processing

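The depth of the libraries and the authors' cutoff limit every statement above: a locus without a peak is not shown to be unbound, and no read counts per gene were used here. In the exact permutation test of 2 against 2 libraries, no difference can pass 0.05. Of 576 single-gene calls recomputed, 513 stayed and 63 changed.

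For gene-end EZH2 in both replicates, 5 genes became 2 (PAX1 and PAX7) where the peak summit had to lie in the window, and 3 (PAX1, PAX2 and PAX7) at a score of at least 100; with a replicate left out the count was 5 to 6. Windows of 1 and 5 kb and an overlap of 200 bp gave counts within 1.5 times of 5, as did the same number of top peaks per list (2081) and a peak in either replicate. For gene-end H3K27me3, 3 genes became 5 with a window of 5 kb, 1 (PAX9) with 2081 top-scoring peaks per list and 9 with a peak in either replicate; without a replicate the count was 4 to 8. Over loci, the 8 genes with H3K27me3 became 4 with 2081 top-scoring peaks. The count of EZH2 loci stayed within 1.5 times under all the alternatives run.

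JARID2 counts rested on the replicate. Gene-end counts were 1 with a peak in either replicate in each line, 0 to 1 with a replicate left out, and 1 (PAX9) in THLE-2 with a window of 5 kb. Locus counts with a peak in either replicate were 6 in HepG2 and 6 in THLE-2, and with a replicate left out 0 to 6 in HepG2 and 1 to 5 in THLE-2. The cause of these changes was not tested. Alternatives for JARID2 coverage were chosen after seeing the data. Deviations of same-numbered JARID2 libraries had r = -0.023 across 9784 genes, which are not independent. HepG2 replicate 2 covered a mean of 0.0625% of coding loci against 1.54% in replicate 1. This r therefore cannot show whether the replicate numbers pair the libraries. The replicate block gave 0 genes past 0.05, as did the other alternatives, but none of these tests could pass it, so this count says nothing about stability.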

Other observations

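At the PAX5 start, the EZH2 peak of replicate 1 held 2633 tags and a fold of 11.78, but its MACS score was 50.17, rank 2105 of 2112 in its list. The shorter start peak of replicate 2 held 1277 tags and had a score of 1724.81, rank 53 of 3690. A score of at least 100 thus dropped PAX5 from the genes with EZH2 in both replicates. At PAX9 the EZH2 scores were 306.34 and 87.7 for peaks of nearly equal extent.

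The peaks closest to the 2-kb limit were at PAX1 and PAX5. An H3K27me3 replicate 2 peak at PAX1 lay 1.98 kb from the upper end and was counted, and an EZH2 replicate 2 peak at PAX5 lay 2.07 kb from the start and was not, although another EZH2 peak counted PAX5 in that library. The HepG2 JARID2 replicate 1 peak of PAX2 lay 2.46 kb from its far end and was not counted at the gene end.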
